A study of Mus musculus with 22 samples.

Results

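The data described here compare tracheal muscle with the chondroblast-enriched cells of mouse embryos at E13.5, in control animals. A table of estimated read counts per gene, with 22 columns, was used, and 18 of its columns could be matched to a labelled group. The members are 4 of these libraries, 2 of muscle and 2 of chondroblasts, chosen by the sorting gate and the control mark in the column name. Each population has 1 library at each of 2 dates that the column names carry, called the earlier and the later date below; which step of the work these dates mark is not stated.

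The study asks how Wnt signalling patterns the mesenchyme of the developing trachea, and its other samples are whole E11.5 tracheas with or without Wnt5a in the mesenchyme and sorted E13.5 cells. The E11.5 controls were labelled Wnt5a f/f, and the E11.5 mutants Dermo1Cre with Wnt5a f/f. The E13.5 embryos carried gamma SMA eGFP, a green fluorescent reporter of gamma smooth muscle actin, and 5 tracheas were pooled per sample. Muscle cells were collected as GFP-positive cells without EpCAM-APC staining, epithelial cells as EpCAM-APC-positive cells, and the double-negative cells were taken as the chondroblast population. Of 3 labelled control samples per population, 2 were Bmp4 f/f; gamma SMA eGFP and 1 was Notum 300/300; gamma SMA eGFP, and no Cre is named for the floxed Bmp4 animals. The table holds 2 columns per control population, and the column names do not tell which of the 3 labelled samples, and so which genotype, each one is. Mutant chondroblasts, used below for levels only, came from Notum 150/150; gamma SMA eGFP embryos.

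The dorsal side of the trachea carries the trachealis, a band of smooth muscle, while its ventral and lateral walls form the cartilage rings, and both arise from the mesenchyme around the foregut tube. Smooth muscle cells contract through a dedicated set of actin and myosin isoforms whose genes are switched on by serum response factor with its partner myocardin. Chondroblasts condense under the control of Sox9 and lay down a matrix of type II, IX and XI collagens and proteoglycans.

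The total count was 17566726 and 16473974 in the muscle libraries and 21678177 and 13513229 in the chondroblast libraries, at the earlier and the later date. All levels are CPM, counts scaled to a common library size over the 18 libraries. A gene with no read in a library could still have been present at up to 0.152 to 0.224 CPM, the worth of 3 counts in these 4 libraries, which covers counting error only.

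The markers matched the gates on the muscle side. Myh11, the smooth muscle myosin heavy chain, stood at 1934 and 1589 CPM in the muscle libraries and at 1.92 and 1.495 CPM in the chondroblast libraries, earlier date first. Acta2, alpha smooth muscle actin, stood at 7067 and 5122 CPM in muscle against 29.3 and 26.1 CPM in chondroblasts. Actg2 encodes gamma smooth muscle actin, the protein whose reporter set the gate, so its difference is tied to the sort. It stood at 2162 and 1815 CPM in muscle against 4.20 and 12.1 CPM in chondroblasts. For all 3 genes the muscle libraries lay far above the chondroblast libraries at both dates. Epcam, the stain used to remove epithelium, was at 2.02 and 4.48 CPM in muscle and 0.658 and 0.224 CPM in chondroblasts, while the control epithelium held 523 and 892 CPM.

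The cartilage marker separated the gates less. Col2a1, the type II collagen of cartilage, stood at 278 and 697 CPM in muscle and at 1202 and 912 CPM in chondroblasts. Chondroblasts were higher at both dates, by -2.11 and -0.39 on the log2 scale (muscle minus chondroblast), but the fold change did not pass the test (log2 -1.25 ± 0.43 SE, n = 2 per population, edgeR adjusted p = 0.638). Col2a1 was thus present in the GFP-positive libraries at both dates, with its higher muscle level at the later date. Cartilage cells inside the muscle gate and Col2a1 RNA made by muscle cells cannot be told apart in bulk libraries, nor can fewer cells of a type and less RNA per cell.

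**Figure D1:**
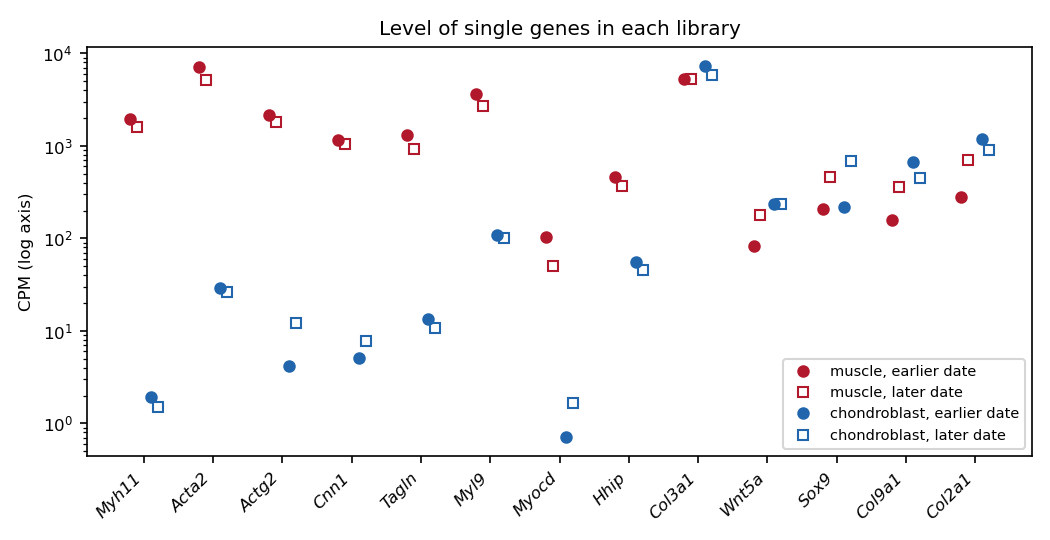
CPM of 13 genes on a log axis in the 4 libraries, with muscle in red and chondroblasts in blue, filled circles for the earlier and open squares for the later date. Contractile genes at left are separated by population at both dates, while for Col3a1 and the cartilage genes at right the populations lie close together or shift with the date.

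Across the table, 13241 genes had 1 CPM or more in both libraries of a population and were tested with the date as a block. 46 genes (0.347%) were higher in muscle and 1 gene (0.00755%) was higher in chondroblasts at an edgeR adjusted p under 0.05. A rule that used no test, a difference of 2-fold or more in the same direction at each date, found 717 genes higher in muscle (5.41%) and 708 higher in chondroblasts (5.35%), and all 47 called genes met it. With 10 counts or more in every library these numbers were 406 and 234, and at 4-fold they were 320 and 326. The shares of 5.41% and 5.35% over all genes tested are the ones to set beside each list's count of 2-fold genes below. The called muscle genes spanned log2 fold changes from 1.84 upward, and in all 46 both muscle libraries exceeded both chondroblast libraries. Of all genes tested, 19.7% showed that order. The 46 were called on these same libraries, so their order largely follows from the call and adds no support to it. The count rests on few libraries: with the epithelium added to the fit 23 genes were called higher in muscle, and in that fit 3 were called without the earlier muscle library, 6 without the later muscle library, 1 without the earlier chondroblast library and 4 without the later chondroblast library. With the date left out the counts were 27 and 0, while DESeq2 called 298 and 199, and limma voom 80 and 2. Without a filter the counts were 134 and 5, with 10 counts or more in every library 90 and 0, and with the largest entry of each symbol 25 and 1.

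**Figure D2:**
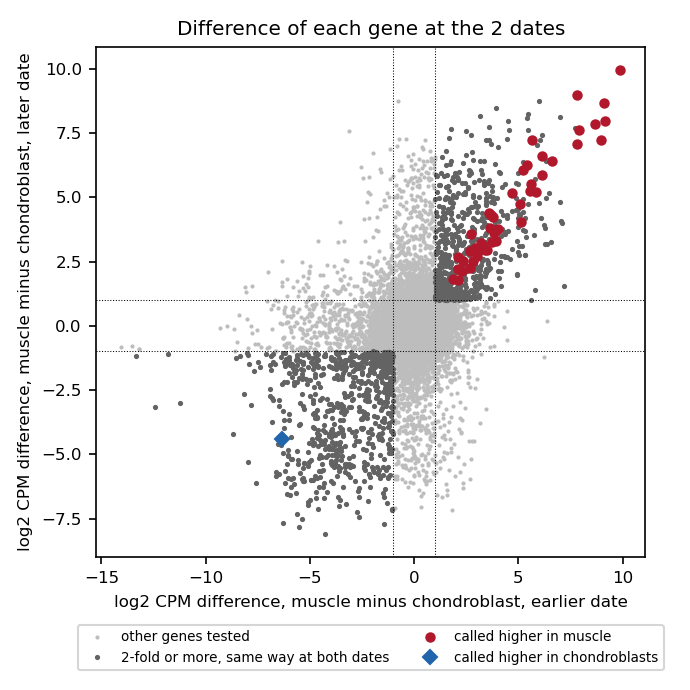
Each point is a gene tested, with its log2 CPM difference (muscle minus chondroblast) at the earlier date on the horizontal and at the later date on the vertical axis; dotted lines mark 2-fold. The 46 genes called higher in muscle (red) lie near the diagonal in the upper right, and the 708 genes at lower left hold 1 called gene (blue).

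The contractile apparatus of smooth muscle was the clearest difference. Of 22 genes listed for it, all 22 were tested and 2-fold or more higher in muscle at both dates, and 15 passed the test; the median log2 fold change was 3.68, against -0.02 over all genes tested. Myh11 had a log2 fold change of 10.01 ± 0.24 (SE, edgeR adjusted p = 0.000821) and Acta2 one of 7.77 ± 0.19 (edgeR adjusted p = 0.000821). Actg2 followed at 8.11 ± 0.57 (edgeR adjusted p = 0.0205). Summed over the list, muscle held 29012 and 22767 CPM and chondroblasts 3075 and 2769.8 CPM. Acta2, Myh11 and Actg2 lie on different chromosomes, Acta2 at chr19:34240336-34255585, Myh11 at chr16:14194527-14292188 and Actg2 at chr6:83512909-83536251 (GRCm38.p6).

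Other thin filament genes behaved alike. Cnn1, the actin-binding protein calponin, stood at 1159 and 1060.5 CPM in muscle and 5.11 and 7.70 CPM in chondroblasts (log2 7.47 ± 0.31, edgeR adjusted p = 0.00471). Tagln, transgelin, stood at 1303 and 928 CPM in muscle and 13.51 and 10.7 CPM in chondroblasts (log2 6.52 ± 0.22, edgeR adjusted p = 0.00288). These levels do not overlap between the populations. Synpo2, an actin-binding protein of the Z-disc and dense body, went from 3.04 and 2.69 CPM in chondroblasts to 219.9 and 165 CPM in muscle. The tropomyosin genes differed by unequal amounts, with log2 fold changes of 3.83 ± 0.20 for Tpm2 and 2.21 ± 0.17 for Tpm1, and Tpm1 was also well expressed in chondroblasts at 390.3 and 307 CPM. Cald1, caldesmon, and Smtn, smoothelin, were called as well, at 2.66 and 2.79 on the log2 scale.

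On the myosin side, Myl9, the regulatory light chain, stood at 3636 and 2713 CPM in muscle against 109.8 and 101 CPM in chondroblasts (log2 4.90 ± 0.19, edgeR adjusted p = 0.00396). Mylk, the kinase that phosphorylates this light chain to start contraction, stood at 829 and 663 CPM against 55.4 and 67.4 CPM. Ppp1r12b, a subunit of the phosphatase that reverses it, stood at 132 and 73.2 CPM against 10.5 and 5.08 CPM. So the light chain, its kinase and its phosphatase subunit were all called higher in muscle. Des, the intermediate filament protein desmin, was also called, at 4.93 ± 0.24 (edgeR adjusted p = 0.00893), as was Myl6, the essential light chain, with the smallest called fold change of the list at 1.84 ± 0.16. Vcl, Flna, Csrp1, Pdlim3, Pdlim7, Ppp1r14a and Lmod1 were 2-fold or more higher in muscle at both dates without passing the test, Vcl closest to it (log2 1.69 ± 0.19, edgeR adjusted p = 0.0621).

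Some of these genes share sequence or position. Acta1, Acta2, Actc1 and Actg2 encode near-identical proteins, and how any reads shared between them were divided is not given in the sources used here. Of the 46 called genes, 21 overlap another RefSeq gene, and 3 overlap one that was also tested, namely Tagln with Pcsk7, Cryab with Hspb2 and Hspb6 with Lin37, whose reads cannot be told apart because strand use is not stated.

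Promoters of the called genes are shown because the CArG box, the site that serum response factor binds, is the known control element of this program. Within the 250 bases before the start, a strict CArG box, read on both strands, lay in 5 of the 31 called muscle genes that have a promoter in the RefSeq table (16.1%), namely Acta1, Actc1, Myl6, Myl9 and Myom1. Actg2, Tagln and Myh11 are among the called genes with no entry in that table and were not searched. It lay in 25 of 526 genes 2-fold higher in muscle (4.75%), 8 of 528 genes 2-fold higher in chondroblasts (1.52%), 163 of 10505 genes tested (1.55%) and 439 of all 27025 promoters (1.62%). A match is a description of these letters and not a bound site, and looser forms of the box were not searched. The stretches below run 5′ to 3′ up to the base before the gene's first base in the RefSeq table, with the box in capitals, for the regulatory light chain gene (GRCm38.p6 chr2:156775214-156775407, plus strand, box starting 105 bases before that first base) and the cardiac actin gene (chr2:114052876-114053125, minus strand, box starting 47 bases before it).
Myl9: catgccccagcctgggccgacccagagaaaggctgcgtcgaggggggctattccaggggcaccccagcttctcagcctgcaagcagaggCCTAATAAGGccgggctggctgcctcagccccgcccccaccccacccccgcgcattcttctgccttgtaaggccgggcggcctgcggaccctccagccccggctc
Actc1: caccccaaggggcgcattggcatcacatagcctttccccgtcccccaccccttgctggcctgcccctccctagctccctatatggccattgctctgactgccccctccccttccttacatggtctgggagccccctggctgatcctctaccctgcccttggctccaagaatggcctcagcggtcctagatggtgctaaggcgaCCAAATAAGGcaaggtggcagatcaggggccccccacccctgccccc

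Regulators of the program had a lower median than its contractile products (3.68 on the log2 scale), a gap between lists that was not tested. Of 13 tested regulators, 0 passed the edgeR test (3 at an unadjusted p under 0.05; 2 by DESeq2 and 0 by limma voom), and the median was 0.75 on the log2 scale. The exception in size was Myocd, the gene of myocardin, at 104 and 50.01 CPM in muscle against 0.709 and 1.64 CPM in chondroblasts (log2 6.03 ± 0.75, edgeR adjusted p = 0.0782). It was the only member of that list 2-fold or more higher at both dates. Fhl1, a LIM-only protein of muscle, stood at 338 and 227 CPM against 166 and 124 CPM and did not pass the test. Tgfb1i1, or Hic-5, a LIM protein of focal adhesions that was in no list, was called higher in muscle at 338 and 271 CPM against 50.6 and 22.8 CPM.

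Channels, receptors and calcium-handling genes leaned toward muscle, most without passing the test. Of 21 tested, 13 were 2-fold or more higher in muscle at both dates and 0 in chondroblasts, with a median log2 fold change of 2.45, and 2 were called. Of the 13, Kcnmb1, Kcnma1, Ryr3, Sln, Trpc6, Casq2 and Jph2 reached 1 CPM in both libraries of muscle only. They were tested through muscle alone, so the filter partly set this count and this median. Ano1, a calcium-activated chloride channel, stood at 159 and 152 CPM in muscle against 16.2 and 17.6 CPM (log2 3.20 ± 0.27, edgeR adjusted p = 0.0343). Ednrb, an endothelin receptor, stood at 387 and 379 CPM against 60.9 and 80.5 CPM (log2 2.45 ± 0.22, edgeR adjusted p = 0.0349). Kcnmb1, the beta subunit of the large-conductance potassium channel, stood at 46.7 and 24.7 CPM in muscle with 2 counts over both chondroblast libraries, just short of the test (edgeR adjusted p = 0.0542). Jph2, junctophilin, which holds the sarcoplasmic reticulum to the cell membrane, was close behind at 36.9 and 46.1 CPM against 0.405 and 0.149 CPM (edgeR adjusted p = 0.0554). Chrm2, the muscarinic receptor of airway smooth muscle, stood at 27.8 and 16.02 CPM against 2.63 and 1.79 CPM, and Gucy1b1, a subunit of the nitric oxide receptor, at 31.5 and 22.3 CPM against 2.89 and 2.54 CPM. Both were 2-fold or more higher in muscle at each date without passing the test, as were Kcnma1, Cacnb2, Ryr3, Sln, Trpc6, Casq2 and Pde5a.

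Of the 46 called genes, 24 were in none of the lists; those that the rule for naming genes does not take were chosen after their values were seen. Among the largest differences were genes with almost no reads in chondroblasts. Calcb, which encodes a calcitonin gene-related peptide, stood at 66.6 and 49.0 CPM in muscle and had no read in either chondroblast library, so it was at least 641-fold higher against a floor of 3 counts over that population. Tnn, the extracellular matrix protein tenascin-W, stood at 68.6 and 85.3 CPM in muscle, a pooled ratio of 847 with a 95% counting interval of 289.5 to 4110.3. Nipal4 stood at 49.1 and 45.6 CPM, a pooled ratio of 1570.4 with an interval of 281 to 62067. All 3 were called, with edgeR adjusted p = 0.0429 for Calcb and 0.0407 for the other two. Of the small heat shock protein genes, Hspb1, Hspb6 and Cryab were called, while Hspb2 was tested and not called, and no list of this family was tested. Hspb1 stood at 140.1 and 174 CPM against 3.19 and 2.17 CPM, and Hspb6 at 147 and 148 CPM against 13.01 and 19.3 CPM. Cryab, alpha B-crystallin, stood at 88.4 and 12.2 CPM against 1.72 and 0.149 CPM. Ckb, brain-type creatine kinase, stood at 1140.2 and 1018 CPM against 110.1 and 131 CPM. Nexn, Dstn, Tubb6, Sbspon, Smoc2, Vwa1, Tspan18 and Ehbp1l1 were called too, with log2 fold changes between 1.96 for Dstn and 4.62 for Nexn.

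Of the called genes, Zfp488, Mrgpra6 and Olfr856-ps1, the last 2 of them pseudogenes in RefSeq, and 1 predicted gene were in none of the lists either. Mrgpra6 stood at 731 and 417 CPM in muscle against 78.5 and 44.9 CPM in chondroblasts. It also stood at 289, 809 and 124 CPM in the Notum mutant chondroblasts and reached 9354 CPM in 1 E11.5 control trachea, where Zfp488 reached 3683 CPM and Olfr856-ps1 1351 CPM. All 3 maxima lay in E11.5 control 3, which had a total count of 6880660 and 17370 genes at 1 CPM or more, against 14566843 to 20034349 counts and 13825 to 15434 genes in the other controls.

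Genes of striated muscle were found in the GFP-positive libraries too. Of 6 skeletal muscle markers tested, 5 were 2-fold or more higher in muscle at both dates and 2 were called, with a summed level of 955 and 91.8 CPM in muscle and 39.7 and 36.8 CPM in chondroblasts. Myog, the skeletal muscle transcription factor myogenin and the most abundant gene of the list, stood at 454 CPM in the earlier and 33.4 CPM in the later muscle library, against 6.38 and 0.224 CPM in chondroblasts (log2 6.40 ± 0.36, edgeR adjusted p = 0.0109). Acta1, skeletal muscle actin, stood at 95.0 and 21.1 CPM against 1.57 and 0.449 CPM. Myog and Acta1 reached 1 CPM in both libraries of muscle only, so the filter partly set the counts for this list. Myod1, which commits cells to skeletal muscle, stood at 111 and 1.64 CPM in muscle, and Myh3, embryonic myosin, at 83.7 and 3.22 CPM. All 4 were far higher in the earlier than in the later muscle library. Pax7 and Ckm had no read in either chondroblast library, but they did not reach 1 CPM in both muscle libraries either and were not tested. Actc1, cardiac actin, was called at 1794 and 588 CPM against 7.90 and 1.05 CPM, and Tnnc1, cardiac troponin C, at 113 and 32.9 CPM against 2.33 and 0.747 CPM. Casq1, which stores calcium in the sarcoplasmic reticulum, and Myom1, myomesin of the M band, were called as well and differed less between the dates, Casq1 at 114 and 92.2 CPM and Myom1 at 101 and 73.0 CPM in muscle. Of 5 heart muscle markers tested, 4 were 2-fold or more higher in muscle, among them Tnnt2 at 96.8 and 56.9 CPM against 0.607 and 3.29 CPM and Myl4 at 81.7 and 60.1 CPM against 2.08 and 4.41 CPM. Tnnt2 reached 1 CPM in both libraries of muscle only, so the filter partly set this count too. The part of skeletal or heart muscle cells in these differences was not tested.

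On the chondroblast side, cartilage matrix genes leaned one way without passing the test. All 17 tested were higher in chondroblasts by the fit, with a median log2 fold change of -1.24, but 14 were so at each date. The exceptions, Col9a3, Snorc and Fmod, the last 2 chosen after their values were seen, were higher in muscle at 1 date. Fmod, the matrix protein fibromodulin, is itself the median gene and stood at 37.2 and 0.0631 CPM in muscle against 9.82 and 4.41 CPM in chondroblasts. Its fitted difference was higher in muscle by limma voom (1.58), without the date (1.39) and with the epithelium in the fit (0.17), and without the later muscle (1.98) or later chondroblast library (1.08). Snorc stood at 0.714 and 4.48 CPM in muscle against 3.14 and 3.06 CPM, with 0.55 fitted without the earlier muscle and 0.35 without the earlier chondroblast library. None passed the edgeR test, while 8 had an unadjusted p under 0.05, DESeq2 called 6 and limma voom 0, and 3 were 2-fold or more higher at both dates. Col9a1, a chain of type IX collagen, stood at 673 and 446 CPM in chondroblasts and 157 and 362 CPM in muscle. Col9a2, another of its chains, stood at 508 and 511 CPM against 232 and 295 CPM (log2 -0.96 ± 0.19, edgeR adjusted p = 0.273). Col9a3 stood at 878 and 526 CPM against 111 and 531 CPM, and the populations hardly differed at the later date (0.01 on the log2 scale; fitted 0.20 without the earlier muscle library). The gap between the populations was wide at the earlier date and narrow at the later one for Col2a1, Col9a1 and Col9a3. Col11a2, of type XI collagen, stood at 54.5 and 69.7 CPM against 1.43 and 32.6 CPM, Hapln1, the link protein of the proteoglycan network, at 8.40 and 12.4 CPM against 0.298 and 0 CPM, and Prg4, lubricin, at 7.79 and 1.05 CPM against 1.96 and 0.441 CPM. Summed over the list, the level was 4313 and 3073 CPM in chondroblasts and 1144 and 2385 CPM in muscle.

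Chondrogenic regulators were divided: of 19 tested, 13 were higher in chondroblasts and 6 in muscle by the fit. Of the 19, 0 passed the edgeR test (5 higher in chondroblasts at an unadjusted p under 0.05; 2 by DESeq2 and 0 by limma voom), with a median of -0.63. Sox9, the master regulator of chondrogenesis, stood at 218 and 690.3 CPM in chondroblasts and 207 and 457 CPM in muscle, so its level followed the date more than the population (log2 -0.33 ± 0.21, and 0.37 without the later chondroblast library). Wwp2, the host gene of a microRNA of cartilage, stood at 1287 and 990.4 CPM against 367 and 758 CPM. Osr1, a transcription factor of foregut mesenchyme, stood at 346 and 471 CPM against 215 and 311 CPM. The other members at an unadjusted p under 0.05 were Prrx1 and, named after their values were seen, Osr2 and Gdf5. Osr2, a relative of Osr1, stood at 126 and 96.4 CPM in chondroblasts against 19.2 and 66.0 CPM in muscle (log2 -1.62 ± 0.59, edgeR adjusted p = 0.65). Gdf5, a BMP family ligand of joints, stood at 109 and 137 CPM against 67.5 and 81.9 CPM, and Prrx1, a homeobox gene of mesenchyme, at 153 and 128 CPM against 55.7 and 103 CPM. Barx1, a homeobox gene, was the only member 2-fold or more higher in chondroblasts at both dates, at 4.40 and 9.27 CPM against 0.714 and 2.96 CPM.

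The single gene called higher in chondroblasts was Hsd3b6, a steroid dehydrogenase. It stood at 415 and 2.47 CPM in chondroblasts and 5.00 and 0 CPM in muscle, so its level lay almost wholly in the earlier chondroblast library (log2 -6.42 ± 0.43, edgeR adjusted p = 0.018). It passed in the fit of 6 libraries (edgeR adjusted p = 0.0250) but not without the date (edgeR adjusted p = 0.593) or with 1 of the 4 libraries left out of it, where edgeR adjusted p ran from 0.0959 without the later muscle library to 1.00 without the earlier chondroblast library. Genes that followed by p, none past the threshold, were a mixed set. Vav1, Adgre1 and Pik3cg are leukocyte genes: Vav1 stood at 14.0 and 38.0 CPM in chondroblasts with 2 counts over both muscle libraries (edgeR adjusted p = 0.0783), Adgre1, the macrophage antigen F4/80, at 13.3 and 29.9 CPM against 0.0595 and 0.315 CPM, and Pik3cg at 7.34 and 17.5 CPM. Stab1, a scavenger receptor of macrophages and sinusoidal endothelium, had no read in muscle and was at least 185-fold higher, and Pdzk1ip1 and Syt17 at least 219-fold and 156-fold. Mbp, myelin basic protein, stood at 12.9 and 24.8 CPM against 0.357 and 0.315 CPM, and Aplnr, the apelin receptor of endothelium, at 23.9 and 12.3 CPM against 0.238 and 0.315 CPM. Mapre2, Gmfb, Cd24a, Emb and Hmox1 completed the set, with log2 fold changes between -2.93 for Emb and -1.12 for Cd24a.

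**Figure D3:**
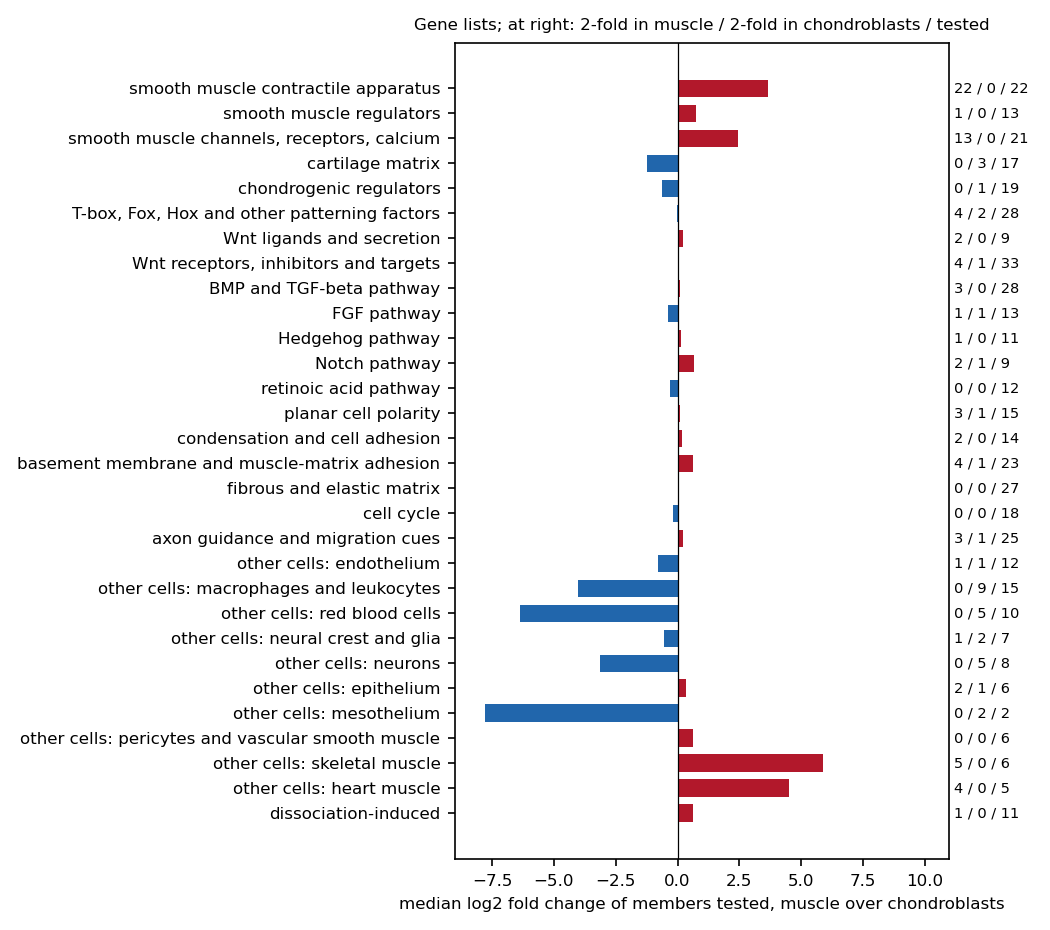
Bars give the median log2 fold change (muscle over chondroblasts) of the tested members of each of 30 gene lists, red above and blue below 0; the numbers at right count members 2-fold or more higher in muscle, in chondroblasts, and tested. The contractile list has 22 of 22 members higher in muscle, while the signalling lists run from a median of -0.38 for FGF to 0.67 for Notch.

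Marker lists of red blood cells, leukocytes, neurons, endothelium, and neural crest and glia (-0.56) had negative medians, toward the double-negative gate. The mesothelial median was negative too, but there the filter fixed the sign. It also partly set the red blood cell and leukocyte medians, where members such as Hbb-bh1 and Ptprc reached 1 CPM in both libraries of chondroblasts only. In the endothelial list Tie1 entered through chondroblasts alone and Prox1 through muscle alone. In all these lists 0 members passed the edgeR test. At an unadjusted p under 0.05 there were 2 red blood cell, 1 leukocyte, 3 neuronal, 2 mesothelial, 1 endothelial and 1 neural crest or glial members higher in chondroblasts. DESeq2 called 2, 7, 3, 1, 1 and 0 in the same order, and limma voom 1 red blood cell gene. Red blood cell genes summed to 79376 and 8007 CPM in chondroblasts and 13.4 and 3561 CPM in muscle, and 5 of 10 tested were 2-fold or more higher in chondroblasts at both dates. Hba-a1, adult alpha globin and the most abundant of them, stood at 34072 and 4647 CPM against 3.15 and 2069 CPM, and Hbb-y, embryonic beta-like globin, at 26431 and 539.6 CPM against 4.58 and 60.4 CPM. Hbb-bh1, a further embryonic globin and among the genes of smallest p, stood at 271 and 7.92 CPM against 0.536 and 0.315 CPM. The adult globin genes are near-identical within each cluster, so their reads may have been split between copies. With the red blood cell genes left out of the table, an alternative chosen after seeing the data, 65 genes were called higher in muscle and 1 in chondroblasts.

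Leukocyte markers gave a like picture. All 15 tested were higher in chondroblasts by the fit (median log2 -4.03), 9 of them 2-fold or more at both dates. Cd68, C1qc, Mrc1, Cx3cr1, Aif1 and Spi1 were among the 9. The list summed to 3.63 CPM in the earlier but 542 CPM in the later muscle library, beside 578 and 1089.6 CPM in chondroblasts. With so low a sum, most members could not reach 1 CPM in both muscle libraries. They were tested through chondroblasts alone, so the filter partly set this direction and this median. Ptprc, the pan-leukocyte antigen CD45, stood at 8.76 and 15.1 CPM against 0.0595 and 6.75 CPM, Tyrobp, a myeloid signalling adaptor, at 44.997 and 42.8 CPM against 0 and 17.7 CPM, and Csf1r, the macrophage colony-stimulating factor receptor, at 83.0 and 36.2 CPM against 0.238 and 35.6 CPM (fitted 0.86 without the earlier muscle library, where Laptm5 and C1qb also reversed, to 0.59 and 1.15). Lyz2, lysozyme and the most abundant of the list, stood at 107 and 712 CPM against 0.298 and 321 CPM. The later muscle library thus held leukocyte and globin reads that the earlier one nearly lacked.

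Neuronal markers summed to 289 and 447 CPM in chondroblasts and 23.9 and 226 CPM in muscle, with 5 of 8 tested 2-fold or more higher in chondroblasts, such as Elavl4, an RNA-binding protein of neurons, at 30.9 and 54.3 CPM against 7.74 and 15.8 CPM. Stmn2 and Gap43, both of growing axons, followed the same order, Gap43 as the most abundant at 76.5 and 141 CPM against 5.59 and 68.4 CPM. Of 12 endothelial markers tested, 1 was 2-fold or more higher in chondroblasts at both dates, 1 in muscle and 10 neither. The sign of Cd34, Flt1, Tek and Erg turned when 1 library was left out. Tie1 was the member higher in chondroblasts, at 14.4 and 4.26 CPM with 2 counts over both muscle libraries, while Cldn5 and Robo4 had no read in muscle; Prox1, of lymphatic endothelium, went the other way at 6.07 and 3.47 CPM in muscle against 2.02 and 0.149 CPM. Mesothelial Upk3b stood at 8.20 and 4.93 CPM in chondroblasts with no read in muscle, at least 74.9-fold higher. The median of the 2 mesothelial markers tested was -7.80 as fitted and -6.04 with Upk3b at its bound. All 5 listed markers summed to 2.26 and 0.126 CPM in muscle, so these 2 passed the filter through chondroblasts alone. That fixed the sign of the median, which therefore gives no direction for the list. Of 7 neural crest and glial markers tested, 1 was 2-fold or more higher in muscle at both dates and 2 in chondroblasts, the first being Cdh19 at 14.6 and 11.23 CPM against 3.95 and 1.05 CPM. Of 6 epithelial markers tested, 3 were higher in muscle and 3 in chondroblasts by the fit, and 2 and 1 were 2-fold or more apart at both dates. Epithelial markers summed to 40.2 and 38.3 CPM in chondroblasts and 55.2 and 45.7 CPM in muscle, with Cdh1, E-cadherin, at 8.51 and 4.604 CPM in muscle against 0.152 and 0.523 CPM in chondroblasts and 599.8 and 522 CPM in epithelium. Krt19, a keratin, went the other way at 7.44 and 3.59 CPM in chondroblasts against 1.07 and 0.252 CPM in muscle. Pericyte markers had a median of 0.62 and no member 2-fold or more apart at both dates; Pdgfrb, the most abundant, stood at 400.4 and 131 CPM in muscle against 184 and 208 CPM (log2 0.24 ± 0.45, but -0.05 without the earlier muscle and -1.04 without the earlier chondroblast library). Of 11 genes induced by tissue dissociation, all 11 were higher in muscle by the fit (median 0.62). Atf3 was the only one 2-fold or more at both dates, at 274 and 211 CPM against 64.3 and 58.9 CPM, and Jun the most abundant at 2777 and 1820.4 CPM against 1090.3 and 1279 CPM. Of the 11, 0 passed the edgeR test, while 4 were higher in muscle at an unadjusted p under 0.05, 4 by DESeq2 and 2 by limma voom. The part of these cells, and of dissociation, in the differences above was not tested.

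**Figure D4:**
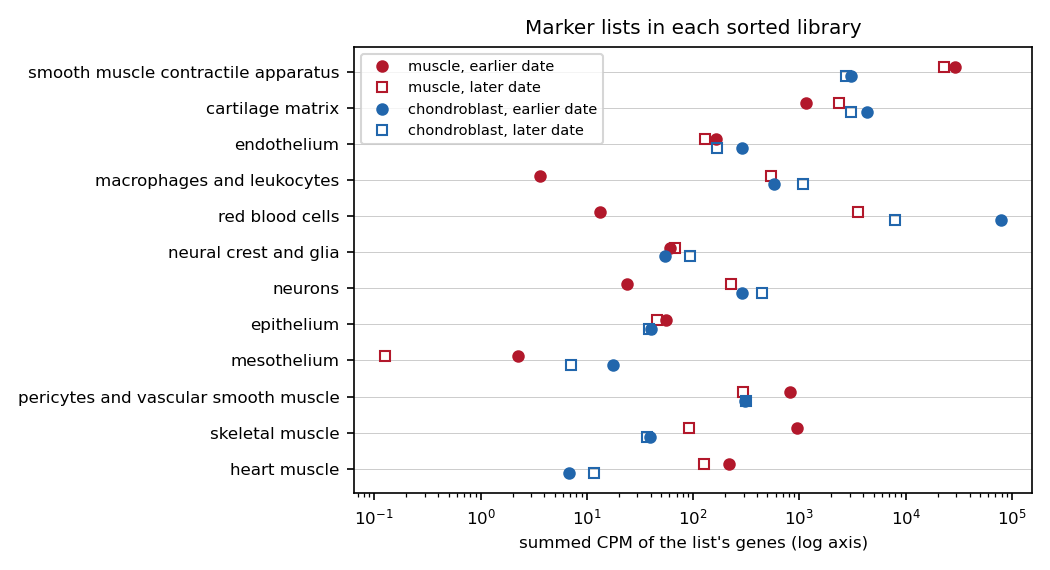
Summed CPM of each marker list on a log axis in the 4 sorted libraries, colours and symbols as in the plot of single genes. Red blood cell genes span from 13.4 CPM in the earlier muscle to 79376 CPM in the earlier chondroblast library, and skeletal muscle genes are highest in the earlier muscle library.

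Signalling lists had median log2 fold changes between -0.38 (FGF) and 0.67 (Notch), against -0.02 over all genes tested. In 24 of the 30 lists 0 members passed the edgeR test; counted over these lists, 32 members were higher in muscle and 42 in chondroblasts at an unadjusted p under 0.05, 19 and 32 by DESeq2, and 4 and 1 by limma voom. Hedgehog signals from the epithelium reach the mesenchyme around it, and Hhip, which binds Hedgehog ligands and is itself a target of the pathway, was the 1 of 11 pathway genes called: 456 and 369 CPM in muscle against 55.5 and 45.1 CPM in chondroblasts (log2 3.04 ± 0.19, edgeR adjusted p = 0.018). Its difference was the same at both dates, 3.04 and 3.03. Boc, a co-receptor of Hedgehog, stood at 165 and 308 CPM in muscle and 514 and 358 CPM in chondroblasts and did not pass the test. The median of the 11 genes was 0.16.

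Among Wnt genes, 0 of 9 tested ligand and secretion genes and 0 of 33 receptors, inhibitors and targets passed the edgeR test (3 and 8 at an unadjusted p under 0.05, 1 and 7 by DESeq2, 0 and 0 by limma voom), with medians of 0.23 and 0.08. Wnt5a, the noncanonical ligand that the study removes from the mesenchyme in its E11.5 animals, stood at 83.8 and 181 CPM in muscle and 235 and 237 CPM in chondroblasts (log2 -0.93 ± 0.32, edgeR adjusted p = 0.631). Notum, an enzyme that inactivates Wnt ligands, stood at 22.8 and 99.3 CPM in muscle and 13.7 and 86.1 CPM in chondroblasts, so it differed by the date and hardly by the population (log2 0.47 ± 0.33, but -1.03 without the later muscle and -0.47 without the earlier chondroblast library). RNA of both genes was thus present on both sides of the sort, and which cells made it cannot be told in bulk libraries. Wnt4 and Wnt9a were 2-fold or more higher in muscle at each date, Wnt9a at 23.3 and 16.7 CPM against 5.11 and 5.38 CPM and Wnt4 at 3.15 and 6.12 CPM against 0.152 and 0 CPM. Lgr6, a receptor for R-spondins, stood at 83.8 and 75.1 CPM in muscle against 0.962 and 5.31 CPM (edgeR adjusted p = 0.156), and Nkd1, a target and inhibitor of Wnt signalling, at 116 and 122 CPM against 13.3 and 37.2 CPM. The secreted inhibitor Frzb was also 2-fold or more higher in muscle at each date, though its level dropped at the later date in both populations, to 19.4 and 8.90 CPM from 73.8 and 28.4 CPM, and its fitted difference was -0.70 without the later muscle library. Rnf43, a ubiquitin ligase that removes Wnt receptors, was 2-fold or more higher in muscle at 23.4 and 13.6 CPM against 8.05 and 0 CPM. Sfrp2, another secreted inhibitor, stood at 516 and 527 CPM against 118 and 311 CPM, and Rspo4 was higher in chondroblasts at 9.26 and 13.8 CPM against 1.55 and 3.72 CPM.

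BMP signals favour cartilage, and Chrdl1, a secreted BMP antagonist, was called higher in muscle at 224 and 173 CPM against 27.8 and 26.6 CPM (log2 2.86 ± 0.24, edgeR adjusted p = 0.0343). It was the 1 of 28 BMP and TGF-beta genes to pass, beside a median of 0.12. Inhba, a subunit of activin, stood at 77.8 and 48.4 CPM against 38.6 and 14.7 CPM. Bmper, a modulator of BMP activity, leaned the other way at 286 and 218 CPM in chondroblasts against 119 and 125 CPM in muscle. In the FGF list Fgfr3, the receptor that restrains growth of cartilage, was 2-fold or more higher in chondroblasts at 90.0 and 101 CPM against 12.1 and 44.2 CPM, and Spry1, a feedback inhibitor, in muscle at 30.8 and 18.7 CPM against 3.75 and 6.95 CPM; the median of the 13 tested was -0.38. In the Notch list, with a median of 0.67 over 9 genes, the ligand Jag1 stood at 56.9 and 34.2 CPM in muscle against 13.3 and 16.1 CPM and the target Heyl at 208 and 37.2 CPM against 24.4 and 13.01 CPM, while the ligand Dll1 was higher in chondroblasts at 5.82 and 9.57 CPM against 0.655 and 3.53 CPM (fitted 0.38 without the later chondroblast library). Retinoic acid genes had a median of -0.30, with Crabp1, a carrier of retinoic acid, at 506 and 535 CPM in chondroblasts against 165 and 440.4 CPM. Of 15 planar cell polarity genes (median 0.11), Scrib, Fjx1 and Dvl1 were 2-fold or more higher in muscle and Celsr3 in chondroblasts at each date. Dvl1, a cytoplasmic transducer of Wnt signals, stood at 25.0 and 29.5 CPM in muscle against 12.4 and 13.6 CPM (log2 1.07 ± 0.50, but -1.35 without the later muscle library), and Celsr3 stood in chondroblasts at 1.92 and 5.98 CPM against 0.238 and 0.252 CPM.

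Among 28 patterning factors of foregut mesenchyme, 4 were 2-fold or more higher in muscle and 2 in chondroblasts at both dates, with a median of -0.02. Over all genes tested these shares were 5.41% and 5.35%, so the 2 in chondroblasts lie near the share of all genes. Foxf1, a Hedgehog-responsive factor of foregut mesenchyme, stood at 86.5 and 168 CPM in muscle against 12.2 and 68.6 CPM in chondroblasts, and Gata5, a zinc finger factor, at 6.78 and 26.9 CPM against 1.11 and 11.4 CPM (fitted -0.48 without the later muscle library). Hoxb5 and Nkx6-1 completed the set higher in muscle. Msx1 and Msx2, homeobox genes that respond to BMP, were higher in chondroblasts, Msx2 at 25.5 and 21.8 CPM against 1.90 and 5.05 CPM and Msx1 at 3.796 and 4.41 CPM against 0.357 and 0.378 CPM. None of them passed the edgeR test (4 at an unadjusted p under 0.05; 2 by DESeq2 and 0 by limma voom).

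The matrix and adhesion lists held 1 called gene. Lama5, the laminin alpha-5 chain of basement membranes, stood at 97.7 and 61.9 CPM in muscle against 2.48 and 0.822 CPM in chondroblasts (log2 5.71 ± 0.50, edgeR adjusted p = 0.0348). Integrins Itga1 and Itga9 and the type IV collagen Col4a1 were 2-fold or more higher in muscle at both dates, Itga9 at 106 and 51.7 CPM against 8.66 and 0.224 CPM, while Sgcd, a sarcoglycan, was lower in muscle at 2.74 and 1.45 CPM against 15.4 and 10.02 CPM. The basement membrane list had a median of 0.63 over 23 genes. Condensation and adhesion genes (median 0.17) included Tnc, tenascin-C, at 406 and 276 CPM in muscle against 119.9 and 133 CPM, and Cd44, a hyaluronan receptor, also 2-fold or more higher in muscle at each date. Of 27 fibrous matrix genes, 0 were 2-fold apart at both dates in either direction and 0 passed the edgeR test, while 5 were higher in muscle and 1 in chondroblasts at an unadjusted p under 0.05, 2 and 1 by DESeq2 and 0 by limma voom. Their median was 0.03, and Col3a1, a fibrillar collagen and the most abundant, stood at 5289.5 and 5261 CPM in muscle and 7389 and 5821 CPM in chondroblasts (fitted 0.0724 without the earlier chondroblast library). Of 18 cell cycle genes, 0 were 2-fold apart at both dates (3 higher in chondroblasts at an unadjusted p under 0.05, 1 by DESeq2, 0 by edgeR and limma voom), with a median of -0.19. Of 25 guidance cues (median 0.20), Ntf3, neurotrophin-3, stood at 39.9 and 43.3 CPM in muscle against 7.69 and 4.71 CPM, with Sema3e and Bdnf also 2-fold or more higher in muscle at each date, and Slit1, a repellent ligand, stood at 1.42 and 5.31 CPM in chondroblasts with no read in muscle, at least 32.5-fold higher.

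Libraries outside the comparison gave the levels of the same genes. Myh11 stood at 2.10, 2.48 and 7.51 CPM in the 3 Notum mutant chondroblast libraries, all of the later date, and at 0.719 and 1.37 CPM in control epithelium. Acta2 stood at 50.3, 36.4 and 49.2 CPM in the mutant chondroblasts and at 4.89 and 6.91 CPM in epithelium. In both cases every one of these libraries lay far below the muscle library of the later date at 1589 and 5122 CPM. Whole E11.5 tracheas, which hold all cell types, had Acta2 between 129 and 388 CPM in 5 controls and between 189 and 374 CPM in 4 mutants, and Cnn1 between 26.2 and 85.0 CPM and between 27.5 and 56.0 CPM. Hhip stood at 36.2, 42.4 and 35.0 CPM in the mutant chondroblasts, close to its level in control chondroblasts. Col2a1 stood at 1536, 1766 and 1256 CPM in them, above both control chondroblast libraries, and no test of mutant against control was run here.

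The dates differed over the whole table. Muscle and chondroblasts differed in the same direction at both dates for 58.1% of the 13241 genes, and 372 genes (2.81%) were 2-fold or more apart in opposite directions. Of the 46 called muscle genes, 41 were higher in the earlier than in the later muscle library, as were 21 of the 22 contractile genes and 6541 of all 13241 genes tested (49.4%).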

How the data were processed

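The values are expected counts (estimated counts per entry), deposited by the authors without further normalization as a table of 47248 entries in 22 columns, and 56.0% of them are fractional; the counting step is not stated. The submitters' processing notes name Partek, limma and mm10. Counts were summed over the 26202 gene symbols, 9286 of them with several entries, and rounded. Of the columns, 4 could not be matched to a labelled group and were not used. Genes with 1 CPM or more in both libraries of a population were tested in R 4.3.3 with edgeR 4.0.16 (TMM, quasi-likelihood F test, 2-sided, date as a block, Benjamini-Hochberg adjustment, called at an adjusted p under 0.05), which left 1 residual degree of freedom and gave a biological coefficient of variation of 53.1%. DESeq2 1.42.0 and limma voom 3.58.1 were alternatives, beside other scalings, filters, thresholds, entries per symbol and libraries in the fit. SE was taken as the size of the log2 fold change over the root of F. Date differences are of log2 CPM with a prior count of 2. Deviations from the population mean at the same date correlated at 0.0937 across genes, which are not independent replicates. Intervals and floors of 3 counts cover counting error only.

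The rule for naming genes took the 4 markers, up to 15 genes per direction (largest fold change among called genes with a mean of 5 CPM or more and the same direction at both dates, filled by smallest p), list members called or 2-fold apart at both dates with up to 4 others of highest mean CPM, and a fixed list of genes that the study names (Wnt5a, Notum, Col2a1, Sox9, Barx1, Myocd, Nkx2-1, Cdh1 and Wnt7b, the last not tested). It took 239 tested genes beside 3 that are not shown. Not all are named in the text. A further 20 were added, and the genes shown in E11.5 tracheas chosen, after values were seen. The members and lists were chosen with earlier results of these data known, and leaving out the red blood cell genes was chosen after seeing the data.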

Additional observations from a re-analysis of the deposited data

Results flagged for a closer look

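Levels in the whole E11.5 tracheas were checked for a library far from the rest of its group for 9 genes, chosen after their values were seen, in 5 controls and 4 mutants; chance alone gives such a library in about 1 in 20 groups. Col2a1 stood at 318.55 CPM in control 1, with the next control at 142.52 CPM. Mrgpra6 stood at 9354 CPM in control 3, with the next control at 2707 CPM. Between the dates, 163 genes were 2-fold or more higher in muscle at the earlier date and in chondroblasts at the later, and 209 genes were the reverse; the difference between the dates was not tested. Among them, Fmod differed by 1.92 (log2, muscle minus chondroblast) on the earlier date but by -4.61 on the other.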

How the results depend on the processing

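The 46 genes higher in muscle and the 1 higher in chondroblasts became 134 and 5 without a filter, 90 and 0 with 10 counts or more in every library, 298 and 199 by DESeq2, 80 and 2 by limma voom, 27 and 0 without the date, of which 26 were among the 46, 23 and 1 with the epithelium in the fit, 25 and 1 with the largest entry of each symbol, and 549 and 422 at an unadjusted p under 0.05 and a fold change over 1.5. With 1 library left out of the 6-library fit, where the lone library is assumed to vary like the others, they ran from 1 to 6 and from 0 to 2. Without the red blood cell genes, chosen after seeing the data, they were 65 and 1. The 717 and 708 genes 2-fold apart at both dates became 406 and 234 with 10 counts or more in every library and 320 and 326 at 4-fold. The cause of these shifts was not tested.

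Directions of single genes were recomputed for 259 genes, 239 taken by the rule for naming genes and 20 added after their values were seen. Of these, 65 reversed under at least 1 alternative, in 114 of 3546 values, while none of the 46 among them that were called, Hsd3b6 included, did under the alternatives run. A further 246 values lost and 128 gained the call. With 1 library left out, log2 fold changes ran, lowest to highest, Gata5 -0.48 to 5.06, Frzb -0.70 to 3.44, Dll1 -5.69 to 0.38, Dvl1 -1.35 to 3.44, Foxp1 -0.0864 to 1.08, Fhl2 -1.73 to 2.61, Ednra -0.0619 to 0.71, Rgs4 -1.35 to 1.97, Gucy1a1 -0.66 to 2.31, Col9a3 -3.18 to 0.20, Sox9 -0.93 to 0.37, Foxp2 -0.19 to 0.13, Tbx3 -0.37 to 0.87, Wnt11 -0.22 to 0.69, Porcn -2.25 to 2.15, Fzd1 -1.16 to 0.90, Dkk3 -0.11 to 0.89, Id2 -0.23 to 0.22, Tgfb3 -0.41 to 0.38, Fgfr2 -0.85 to 0.0582, Etv5 -1.95 to 0.18, Smo -0.26 to 0.55, Sufu -0.55 to 0.028, Notch2 -0.46 to 0.89, Notch3 -0.36 to 1.60, Notch1 -0.28 to 2.41, Rarb -0.57 to 0.0835, Stra6 -2.25 to 1.14, Ptk7 -0.25 to 0.48, Fat1 -0.31 to 0.54, Dchs1 -0.21 to 0.54, Fat4 -2.05 to 0.71, Fn1 -0.51 to 1.05, Cdh11 -0.35 to 0.13, Postn -1.68 to 0.41, Nid2 -0.78 to 0.22, Col3a1 -0.67 to 0.0724, Col1a2 -0.30 to 0.14, Col1a1 -0.22 to 0.38, Cdkn1c -0.57 to 1.88, Ccnd2 -0.52 to 0.0368, Nrp1 -0.22 to 0.31, Unc5c -1.61 to 0.0889, Cd34 -1.58 to 0.46, Flt1 -0.99 to 0.88, Tek -1.88 to 0.21, Erg -2.91 to 0.60, Csf1r -11.02 to 0.86, Laptm5 -11.49 to 0.59, C1qb -11.49 to 1.15, Sox10 -4.52 to 0.91, S100b -2.30 to 1.58, Ngfr -1.51 to 0.81, Dbh -3.46 to 1.08, Krt18 -1.04 to 0.77, Nkx2-1 -1.38 to 0.56, Pdgfrb -1.04 to 1.65, Rgs5 -0.66 to 4.52, Kcnj8 -0.79 to 1.57, Chrna1 -0.0129 to 1.61, Tnni3 -1.99 to 0.42, Ier2 -0.29 to 0.49, Notum -1.03 to 2.37, Fmod -6.02 to 1.98, Snorc -2.11 to 0.55. Reversals elsewhere were, with the epithelium in the fit Rgs4 -0.11, Id2 0.000141, Pdgfrb -0.00252 and Fmod 0.17, with the largest entry of each symbol Porcn -0.50, Dkk3 -0.14, Tgfb3 -0.00476, Flt1 0.24, Tek 0.12 and S100b -0.00276, by limma voom Fzd1 0.0235, Flt1 0.0536 and Fmod 1.58, with library size only Id2 0.00357, without the date Id2 0.0102, Ptk7 -0.0371, Flt1 0.0199 and Fmod 1.39, with 10 counts or more in every library Tgfb3 -0.000914, without the red blood cell genes Tgfb3 -0.00819 and S100b -0.00589. The cause was not tested.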
